A study of Mus musculus with 6 samples.

Results

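The genes described here are 10 core genes of the p53 pathway, namely Trp53, Mdm2, Mdm4, Ccng1, Trp53inp1, Gadd45a, Btg2, Perp, Phlda3 and Zmat3. They were chosen by gene symbol for their place in the pathway, out of 29955 genes in the expression table, and all 10 had enough reads to be tested. The table comes from RNA sequencing of mouse embryonic fibroblasts (MEFs) at passage 3, with 3 libraries labelled Rnf40+/+ and 3 labelled Rnf40-/-. RNF40 is a subunit of the ubiquitin ligase that places a single ubiquitin on histone H2B (H2Bub1), and the comparison asks which transcripts change when that ligase is lost. The Rnf40-/- cells carried loxP sites around exons of Rnf40 and a tamoxifen-inducible Cre (CreERT2) in the ubiquitously active Rosa26 locus, and were exposed to 250 nM 4-hydroxytamoxifen (4-OHT) for 5 days, followed by 3 days without it. Whether the Rnf40+/+ MEFs carried the Cre or received 4-OHT is not given in the sources used here, so loss of Rnf40 and exposure to 4-OHT with Cre cannot be told apart. The labels do not say whether the 3 libraries of a genotype came from separate embryos, and p values therefore measure the spread between these libraries, which may be technical.

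The transcription factor p53, encoded by Trp53 in the mouse, is kept low in unstressed cells by MDM2, a ubiquitin ligase that marks it for the proteasome, and by its relative MDM4, which binds p53 and blocks its activity. DNA damage and other stresses release p53 from both, mainly through changes to the protein and not to its mRNA. Stabilised p53 then activates genes that halt the cell cycle, repair DNA, return a signal to p53 itself or commit the cell to apoptosis, and Mdm2 is one of them, which closes a feedback loop. MEFs are a classical system for this pathway, since they slow down and senesce in culture in a p53-dependent manner.

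Many p53 target genes carry a p53 response element, 2 half-sites of 10 bases side by side. The mm9 genome was searched for this element with no spacer and at most 2 mismatches among the 20 bases, with the fixed C and G of each half-site kept, within 3 kb on either side of each gene start (GENCODE annotation). The element is its own reverse complement, so that one pass covers both strands. A match was found in 3 of the 10 core genes, Zmat3, Ccng1 and Perp, and also in Cdkn1a, the best known p53 target, which is not among the 10. Of 22376 windows of the same length around protein-coding gene starts, 5.94% held such a match, 0.965% held one with at most 1 mismatch and 0.103% held one without a mismatch. The matches are printed here because they relate the listed genes to the factor by sequence alone, with the 20 matched bases in capitals, 5 flanking bases on each side and the strand of the gene.
Zmat3, intron: gtgagAAACAAGCCCAGGCATGTCTtggga
Ccng1, upstream: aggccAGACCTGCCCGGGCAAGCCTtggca
Ccng1, intron: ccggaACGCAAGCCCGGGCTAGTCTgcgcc
Perp, upstream: ctcacATTCTAGCCCAGGCTTGCCCagaat
Perp, intron: atcctGGGCAAGCTCTGGCATGTCAgggtg
Cdkn1a, upstream: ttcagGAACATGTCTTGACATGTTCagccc

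The Zmat3 match, at chr3:32263253-32263272 on the minus strand, had no mismatch and lay 1338 bases inside the gene. The Ccng1 matches, also on the minus strand, each had 1 mismatch and lay at chr11:40568964-40568983, 160 bases upstream of the gene start, and at chr11:40568438-40568457, 366 bases inside it. Both Perp matches had 2 mismatches, at chr10:18562840-18562859 and chr10:18567823-18567842 on the plus strand, 2028 bases upstream of the start and 2956 bases inside the gene. The Cdkn1a match (chr17:29227873-29227892, plus strand) had 1 mismatch and lay 42 bases upstream of the annotated start. The remaining 7 core genes had no match by these letters within this window, which says nothing about binding of p53 to them.

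**Figure D1:**
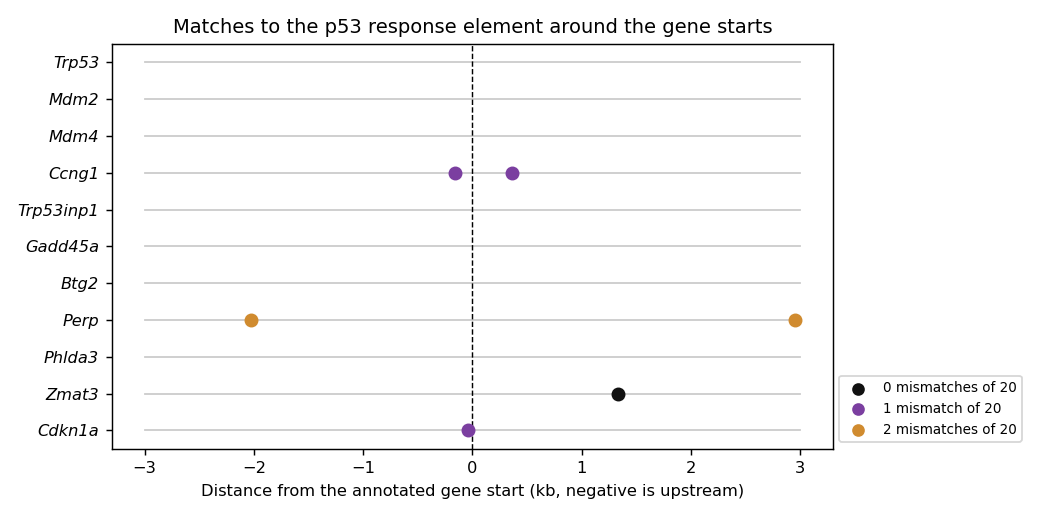
Matches to the p53 response element around the gene starts of the 10 core genes and Cdkn1a. The horizontal axis is the distance from the annotated gene start in kb, each grey line is the window searched and each dot is a match, coloured by its number of mismatches; only Zmat3, Ccng1, Perp and Cdkn1a have dots, and the dot of Zmat3 is the one without a mismatch.

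The libraries held between 17053436 and 26344170 reads on genes, and the core genes had between 223 and 28833 reads in a library, fewest for Mdm4. Rnf40 itself fell by 1.30 on the log2 scale (standard error, SE, of 0.09; limma adjusted p = 4.25e-07, corrected by Benjamini and Hochberg over all genes tested), to 40.5% of its Rnf40+/+ mean, and was lower in each library labelled Rnf40-/-. The fibroblast markers ranged from Lum, at 66.1 to 248 normalized counts, to Fn1, at 202424 to 342076. Their summed normalized count was 728300 to 817800 in Rnf40+/+ and 434400 to 435700 in Rnf40-/- libraries. By the same test, 10 of the 12 markers were lower in Rnf40-/- MEFs. Of the 10 macrophage markers, 4 were lower and 2 higher. Of 5 tested epithelial markers 2 were higher, and of 6 tested endothelial markers 3 were higher and 1 lower. Over all genes tested, 23.3% were higher and 24.1% lower. The endothelial genes that rose were Pecam1, Cdh5 and Kdr (log2 fold change 2.58, 3.26 and 1.56, limma adjusted p = 0.000484, 0.000295 and 0.000705), of which Pecam1 and Cdh5 had at most 39.7 normalized counts in any library. Emcn, with the highest Rnf40+/+ mean of the 7 endothelial genes, was lower (log2 fold change -1.15, limma adjusted p = 0.0023). Its mean was 126 normalized counts in Rnf40+/+ and 55.3 in Rnf40-/- libraries. The summed level of the 7 endothelial genes was 148.5 to 285.4 in Rnf40+/+ and 249.8 to 346.5 in Rnf40-/- libraries. Single Rnf40+/+ libraries stood apart in marker lists. Replicate 1 held 81.2 normalized counts of the Y-linked gene Ddx3y, against at most 7.14 in any other library. The sex marker Xist was at 9345 in that replicate, within its range of 7178 to 9616 over all 6 libraries. Replicate 1 also had a summed level of 6 skeletal muscle genes of 4884 against 1714 and 2036 in replicates 3 and 2, with Myod1 at 0 in every library. That sum was 448.8 to 498.6 in Rnf40-/- libraries, and the muscle genes Des and Acta1, the only tested ones of the list, fell to 15.7% and 16.4% of their Rnf40+/+ means (limma adjusted p = 0.000486 and 1.91e-05). The part of these marker levels in the values of the core genes was not tested. Replicate 3 had a summed level of 10 macrophage genes of 11600, against 5909 and 6574 in replicates 1 and 2 and 3827 to 4266 in Rnf40-/- libraries. In bulk RNA, fewer cells of a type and less RNA per cell cannot be told apart.

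Loss of Rnf40 was accompanied by changes of opposite direction within the p53 pathway, while Trp53 mRNA did not pass the test. Trp53inp1 and Btg2 rose to 162% and 163% of their Rnf40+/+ means, whereas Zmat3, Gadd45a and Mdm2 fell to 62.2%, 64.7% and 82.4%. Trp53, Mdm4, Ccng1, Perp and Phlda3 did not pass. Thus 2 of the 10 genes were higher and 3 were lower with an adjusted p under 0.05 (limma), against 23.3% and 24.1% of all 16378 genes tested, so the number of changed core genes was close to that of the table as a whole. The ranges of the 3 libraries did not overlap between genotypes for 2 higher and 4 lower core genes, against 27.8% and 28.7% of all genes. The median log2 fold change was -0.09 over the 10 genes and -0.0035 over all genes tested, and the median of its absolute size was 0.27 and 0.33. None of the 10 genes changed by more than 1 on the log2 scale. Over all 16378 genes tested, 840 were higher and 937 lower by more than that with an adjusted p under 0.05 (limma).

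**Figure D2:**
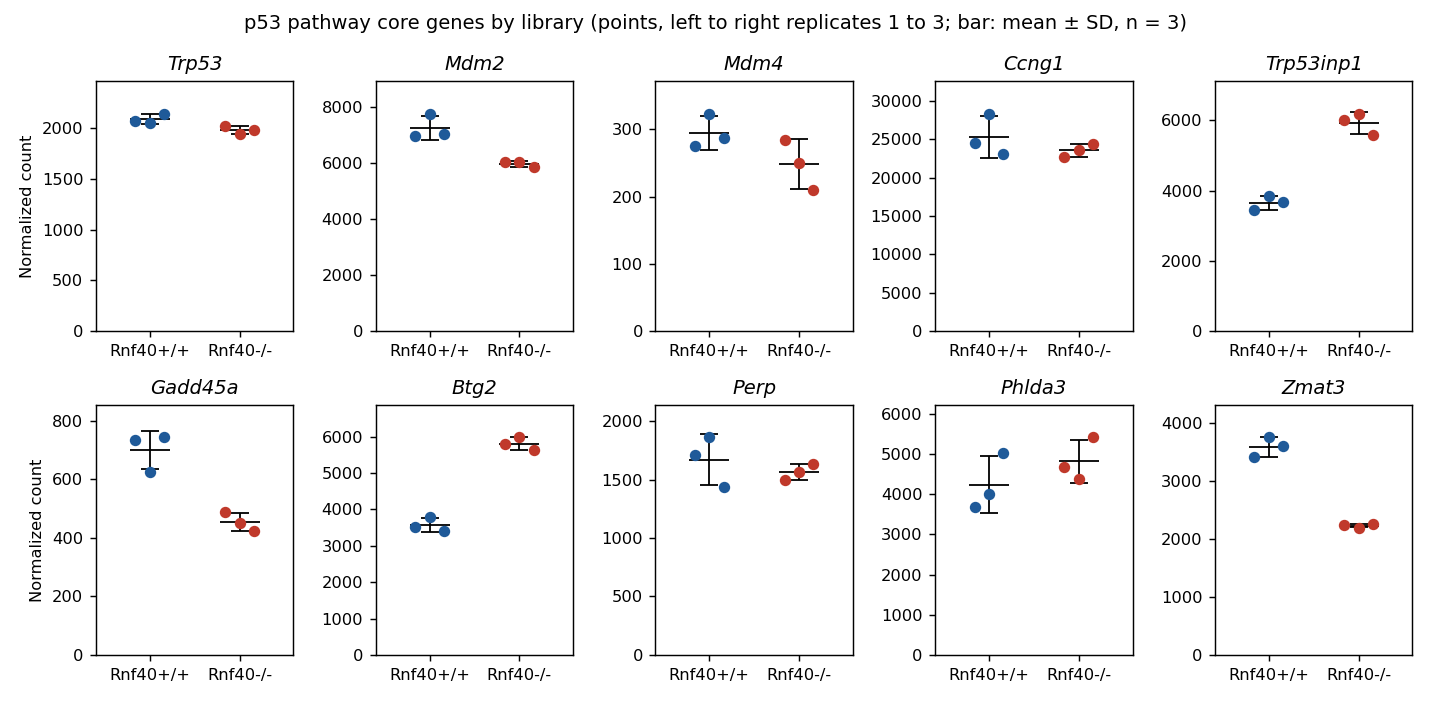
Normalized counts of the 10 core genes in each library (vertical axes start at 0; points from left to right are replicates 1 to 3; bars are mean ± SD, n = 3). Trp53inp1 and Btg2 lie higher and Zmat3, Gadd45a and Mdm2 lower in every Rnf40-/- library than in any Rnf40+/+ library, while the points of Mdm4, Ccng1, Perp and Phlda3 overlap.

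Trp53 (ENSMUSG00000059552, chromosome 11 of mm9, 69393861 to 69405375, plus strand) was measured at 2068, 2054 and 2141 normalized counts in Rnf40+/+ replicates 1 to 3, and at 2019, 1937 and 1977 in Rnf40-/- replicates 1 to 3. A normalized count here is the number of reads on a gene divided by the size factor of its library. Each Rnf40-/- library was below each Rnf40+/+ library, but by little. The means were 2088 ± 46.7 and 1978 ± 41.0 (SD, n = 3 each), and the log2 fold change of -0.08 did not pass (95% interval -0.21 to 0.05, adjusted p = 0.318 from limma). The level of p53 protein was not analysed here.

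Mdm2 (ENSMUSG00000020184, chromosome 10, 117125944 to 117147814, minus strand), which encodes the main ubiquitin ligase of p53, had 6964, 7760.4 and 7029 normalized counts in Rnf40+/+ and 6028, 6047 and 5854 in Rnf40-/- MEFs. The genotypes did not overlap. From 7251 ± 442 to 5976 ± 106 (SD, n = 3 each), Mdm2 fell by 0.28 on the log2 scale (SE 0.06, limma adjusted p = 0.00384), which is the smallest of the 5 changes that passed. Mdm4 (ENSMUSG00000054387, chromosome 1, 134886422 to 134921943, minus strand), which encodes the relative of MDM2 that blocks p53 without degrading it efficiently, had 275, 323 and 287 normalized counts in Rnf40+/+ and 284, 249 and 211 in Rnf40-/- MEFs. Its ranges overlapped through Rnf40-/- replicate 1. Its log2 fold change was close to that of Mdm2, at -0.26, but with a larger standard error (0.13 against 0.06) it did not pass (95% interval -0.54 to 0.03, adjusted p = 0.125 from limma).

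Both inhibitors were also set against Trp53 within each library, where size factors cancel. The log2 ratio of Mdm2 to Trp53 reads was 1.75, 1.92 and 1.71 in Rnf40+/+ and 1.58, 1.64 and 1.57 in Rnf40-/- libraries. All 3 Rnf40-/- values were lower, by 0.20 on average. The log2 ratio of Mdm4 to Trp53 was -2.91, -2.67 and -2.90 in Rnf40+/+ and -2.83, -2.96 and -3.23 in Rnf40-/- libraries, and these ranges overlapped. The log2 ratio of Mdm2 to Mdm4 was 4.62 ± 0.04 in Rnf40+/+ and 4.60 ± 0.20 in Rnf40-/- libraries (SD, n = 3 each), a difference well within the spread of the Rnf40-/- libraries.

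Ccng1 (ENSMUSG00000020326, chromosome 11, 40562054 to 40568813, minus strand) encodes cyclin G1, which brings the phosphatase PP2A to MDM2 and so acts back on p53. It had 24491, 28316 and 23025 normalized counts in Rnf40+/+ and 22702, 23617 and 24353 in Rnf40-/- libraries. The 3 Rnf40-/- values lay around the lower 2 Rnf40+/+ values. The log2 fold change of -0.10 did not pass (95% interval -0.28 to 0.09, adjusted p = 0.372 from limma).

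Trp53inp1 (ENSMUSG00000028211, chromosome 4, 11083578 to 11101526, plus strand) encodes a stress-induced nuclear protein that promotes the phosphorylation of p53 and has a role in autophagy. It had 3448, 3837 and 3670.2 normalized counts in Rnf40+/+ and 5994, 6185 and 5587 in Rnf40-/- libraries. The lowest Rnf40-/- library was far above the highest Rnf40+/+ library. Trp53inp1 thus rose from 3652 ± 195 to 5922 ± 305 (SD, n = 3 each), or by 0.70 on the log2 scale (SE 0.07, limma adjusted p = 5.99e-06).

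The 2 growth arrest genes moved in opposite directions. Btg2 (ENSMUSG00000020423, chromosome 1, 135971747 to 135975697, minus strand) encodes an antiproliferative protein that works with the CCR4-NOT deadenylase. Its normalized counts were 3509.9, 3796 and 3416 in Rnf40+/+ and 5812, 5984 and 5649 in Rnf40-/- libraries. Btg2 rose from 3574 ± 198 to 5815 ± 168 (SD, n = 3 each), and its rise of 0.70 on the log2 scale (SE 0.06, limma adjusted p = 3.78e-06) could not be told apart from that of Trp53inp1. Gadd45a (ENSMUSG00000036390, chromosome 6, 66985090 to 66987451, minus strand), which encodes a stress sensor with roles in G2/M arrest and DNA repair, had 733, 626 and 743 normalized counts in Rnf40+/+ and 486, 449.8 and 424 in Rnf40-/- libraries. Every Rnf40-/- library was below the lowest Rnf40+/+ library. Gadd45a fell from 701 ± 64.7 to 453 ± 31.4 (SD, n = 3 each), by 0.62 on the log2 scale (SE 0.10, limma adjusted p = 0.000216). An annotated lincRNA, E230016M11Rik, overlaps 337 of the 1764 exonic bases of Gadd45a on the opposite strand. The library kit keeps strand, but whether the counting used it is not given in the sources used here.

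Among the genes tied to apoptosis and survival, Zmat3 (ENSMUSG00000027663, chromosome 3, 32233718 to 32264600, minus strand) changed most. It encodes a zinc finger protein that binds RNA and influences splicing and mRNA stability, and it holds the response element without a mismatch shown above. The normalized counts were 3417, 3757 and 3602 in Rnf40+/+ and 2250.4, 2197 and 2253 in Rnf40-/- libraries, so that the Rnf40-/- libraries lay close together and far below the others. Zmat3 fell from 3592 ± 170.3 to 2233 ± 31.6 (SD, n = 3 each), by 0.68 on the log2 scale (SE 0.06, limma adjusted p = 3.78e-06).

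Perp (ENSMUSG00000019851, chromosome 10, 18564877 to 18576879, plus strand) encodes a tetraspan membrane protein that acts in p53-dependent apoptosis and in desmosomes of epithelia. Its normalized counts were 1714, 1862 and 1434 in Rnf40+/+ and 1498, 1562 and 1633 in Rnf40-/- libraries. Rnf40+/+ replicate 3 was the lowest library of all and replicate 2 the highest. The log2 fold change of -0.09 did not pass (95% interval -0.29 to 0.11, adjusted p = 0.46 from limma). Without Rnf40+/+ replicate 3, however, Perp was lower in Rnf40-/- MEFs by the same test (log2 fold change -0.19, adjusted p = 0.0431), and without Rnf40+/+ replicate 2 the log2 fold change was -0.0041. The summed normalized count of the 8 epithelial markers was 182 to 291 in Rnf40+/+ and 886 to 1024 in Rnf40-/- libraries, most of it from the desmosome gene Dsp, while Epcam had at most 8.50 normalized counts and Cdh1 at most 7.14 in any library, and the part of these markers in the values of Perp was not tested.

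Phlda3 (ENSMUSG00000041801, chromosome 1, 137662696 to 137665713, plus strand) encodes a small pleckstrin homology protein that keeps the survival kinase AKT from the membrane. It had 3671, 3996 and 5025 normalized counts in Rnf40+/+ and 4664, 4379 and 5412 in Rnf40-/- libraries. Rnf40+/+ replicate 3 lay among the Rnf40-/- values. The log2 fold change of 0.19 did not pass (95% interval -0.05 to 0.44, adjusted p = 0.169 from limma), and it was 0.33 without Rnf40+/+ replicate 3, where it passed (limma adjusted p = 0.00555). With all libraries kept, Phlda3 also passed in a fit with a replicate block (limma adjusted p = 0.0273). The calls of Phlda3 and Perp thus both changed when Rnf40+/+ replicate 3 was left out. That library had the highest macrophage marker level, whose part in these values was not tested.

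**Figure D3:**
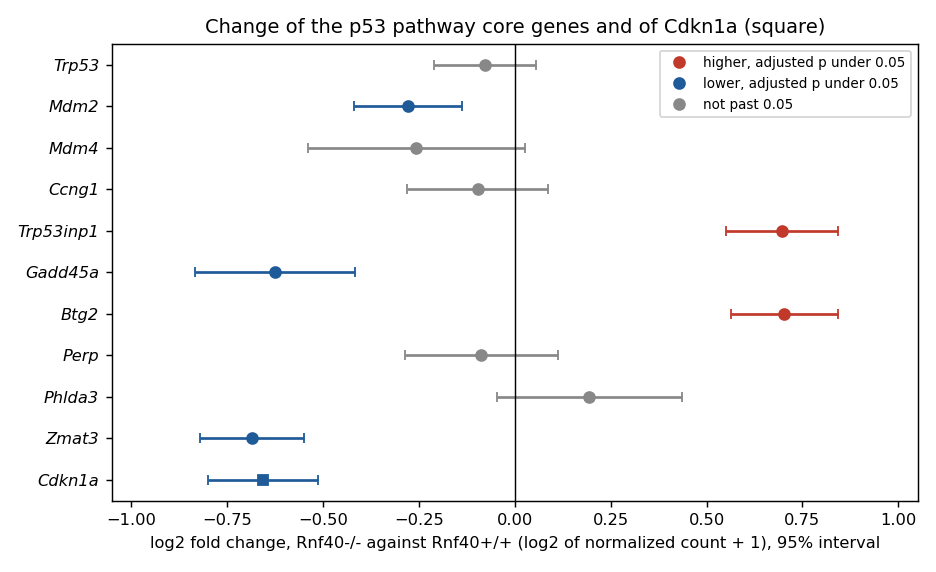
Log2 fold change of the 10 core genes and of Cdkn1a (square) in Rnf40-/- against Rnf40+/+ MEFs, with its 95% interval from limma; colour gives the direction of the genes with an adjusted p under 0.05. The 2 red genes lie near 0.70, Zmat3, Gadd45a and Cdkn1a lie between -0.68 and -0.62, and the intervals of the 5 grey genes cross 0.

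Levels of different genes were compared as normalized counts per kb of exonic length in GENCODE, which may differ from the transcripts used for counting. In Rnf40+/+ MEFs, Ccng1 was by far the most abundant core gene, with 7197 ± 778 normalized counts per kb, followed by Phlda3 with 2714 ± 453 (SD, n = 3 each). Next came Mdm2 with 1430.0 ± 87.2 and Btg2 with 1303 ± 72.0, whose ranges overlapped, and Perp with 879 ± 114. Trp53inp1 (564 ± 30.2), Trp53 (516 ± 11.5), Zmat3 (444 ± 21.1) and Gadd45a (397 ± 36.7) came next, each with a range that did not overlap that of its neighbour, although the lowest library of Trp53inp1 (532.5) was close to the highest of Trp53 (529.3) and the lowest of Zmat3 (422.4) to the highest of Gadd45a (421). Mdm4 was lowest, at 84.1 ± 7.17. In Rnf40-/- MEFs the level per kb of Btg2, 2120.0 ± 61.1, was above that of Mdm2, 1179 ± 21.0, in every library, and that of Trp53inp1, 914.5 ± 47.2, was above that of Perp, 823 ± 35.4. In Rnf40-/- replicate 3, however, Trp53inp1 (862.8) and Perp (858.8) were close. At the lower end, Zmat3 (276 ± 3.91) and Gadd45a (257 ± 17.8) overlapped, and Mdm4 was again lowest at 70.7 ± 10.5.

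Several core genes belong to families, and the values of their relatives are given beside them. Of 18 relatives, 15 were tested, of which 2 were higher and 8 lower (13.3% and 53.3%, against 23.3% and 24.1% of all genes tested by limma). In the Btg/Tob family of antiproliferative proteins, Tob1 rose with Btg2 (log2 fold change 0.92, adjusted p = 1.79e-06), Btg3 fell by 0.36 (adjusted p = 0.00962), and Tob2 did not pass (-0.02, adjusted p = 0.833). Btg1 fell by 0.23 (limma adjusted p = 0.0204), a call lost with upper-quartile normalization (adjusted p = 0.0613) and without Rnf40+/+ replicate 1 or 2 or Rnf40-/- replicate 1 or 3 (0.0651 to 0.0709). Btg3 was not called without Rnf40-/- replicate 1 (adjusted p = 0.0509 from limma). The log2 ratio of Btg2 to Btg1 reads was 0.17, 0.28 and 0.34 in Rnf40+/+ libraries and 1.19, 1.20 and 1.19 in Rnf40-/- libraries.

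Trp53inp2, the autophagy protein related to Trp53inp1, fell by 0.36 (SE 0.07, limma adjusted p = 0.000979), in contrast to the rise of Trp53inp1. Their log2 ratio was 0.12 ± 0.04 in Rnf40+/+ and 1.18 ± 0.06 in Rnf40-/- libraries (SD, n = 3 each), and the ranges did not overlap. In the Gadd45 family of stress sensors, Gadd45g fell by 0.26 (limma adjusted p = 0.0183) and Gadd45b did not pass (-0.14, adjusted p = 0.258). The call of Gadd45g was lost without Rnf40-/- replicate 1 or 2 (adjusted p = 0.0536 and 0.0696 from limma). The log2 ratio of Gadd45a to Gadd45g was lower in each Rnf40-/- library, at -2.31, -2.37 and -2.50, than in Rnf40+/+ libraries, at -1.85, -2.11 and -2.13.

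Ccng2, a cyclin related to Ccng1, did not pass (-0.13, adjusted p = 0.167 from limma), and Ccni rose by 0.39 on the log2 scale (adjusted p = 0.00224). Zmat1 fell by 0.51 at between 82.1 and 178 normalized counts (limma adjusted p = 0.0444). The quasi-likelihood test of edgeR (adjusted p = 0.0509) and the Wald test of DESeq2 (adjusted p = 0.0522) did not call it. In limma the call was lost with upper-quartile normalization (adjusted p = 0.0664) and without the gene filter (adjusted p = 0.0618). It was also lost without Rnf40+/+ replicate 1 or Rnf40-/- replicate 2 or 3 (limma adjusted p = 0.163, 0.0894 and 0.164). Zmat2 and Zmat5 did not pass (-0.12 and 0.16, adjusted p = 0.279 and 0.223 from limma). Phlda1, a paralog of Phlda3, fell by 0.59 (adjusted p = 0.00574), and of the tetraspan relatives of Perp, Pmp22, a myelin protein also made by fibroblasts, fell by 0.51 (adjusted p = 0.000326) and Tmem47 by 0.42 (adjusted p = 0.00258, all from limma).

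**Figure D4:**
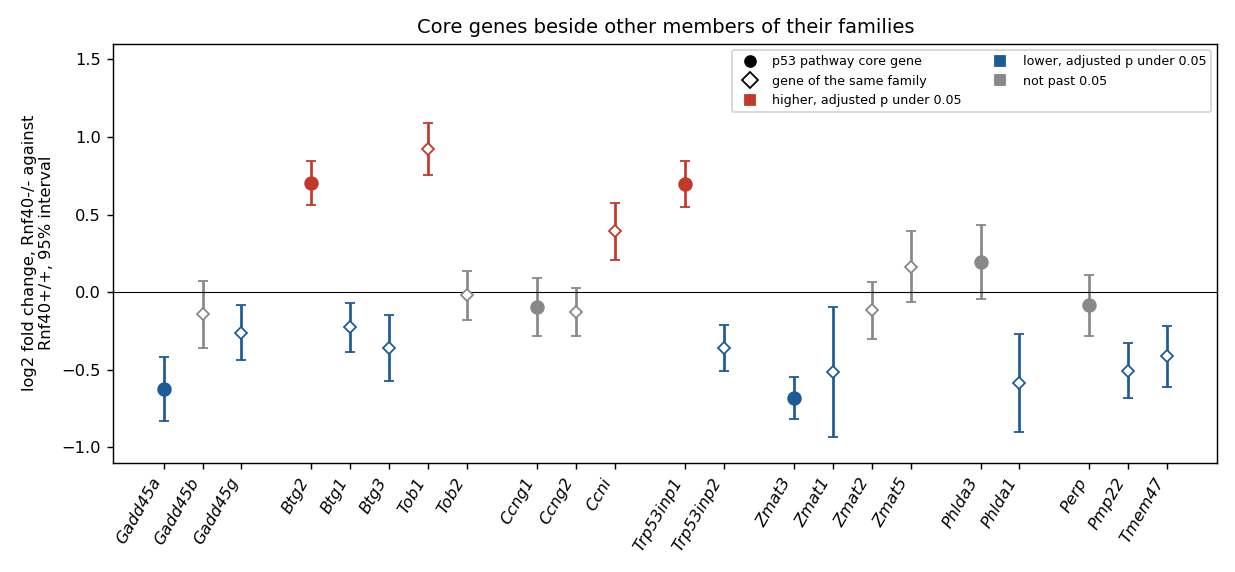
Log2 fold change (Rnf40-/- against Rnf40+/+, with 95% interval from limma) of core genes, drawn as filled circles, beside relatives of the same family, drawn as open diamonds. Btg2 and Trp53inp1 stand above 0 while Btg1, Btg3 and Trp53inp2 stand below it, and Gadd45a and Zmat3 are the lowest of their families.

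The rest of the pathway was followed in a list of 68 further genes, of which 66 were tested. In this list 24 genes (36.4%) were higher and 15 (22.7%) were lower in Rnf40-/- MEFs, against 23.3% and 24.1% of all genes tested (limma, adjusted p under 0.05). The median log2 fold change was 0.03. As among the core genes and the genes of the whole table, targets with related tasks moved in both directions.

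Cdkn1a, which encodes the CDK inhibitor p21 and is the classical mediator of p53-dependent G1 arrest, had 13556, 14880.3 and 14639 normalized counts in Rnf40+/+ and 8930.2, 8937 and 9466 in Rnf40-/- libraries. It fell by 0.66 on the log2 scale (SE 0.07, limma adjusted p = 8.2e-06), a change of the size of those of Zmat3 and Gadd45a. Of the 17 listed targets in arrest and growth control, 6 were higher and 5 lower (35.3% and 29.4%, against 23.3% and 24.1% of all genes tested). The largest rises were those of Gdf15, a secreted stress cytokine (1.21, adjusted p = 0.00119), of Rprm (0.59, adjusted p = 0.00124) and of the tetraspanin gene Cd82 (0.52, adjusted p = 0.000501). Psrc1, Ckap2 and Gtse1 fell by 2.27, 1.25 and 0.76 (adjusted p = 4.27e-09, 1.25e-06 and 3.83e-06, all from limma). The products of these 3 genes act at the mitotic spindle or in G2, and their mRNAs are also known to vary with the cell cycle. The part of the cell cycle in their values was not tested.

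Of the 14 targets in apoptosis and autophagy, 6 were higher and 4 lower (42.9% and 28.6%, against 23.3% and 24.1% of all genes tested). Among the BH3-only activators of apoptosis, Bbc3 (Puma) rose by 0.55 (adjusted p = 0.000505), whereas Pmaip1 (Noxa) fell by 0.53 (limma adjusted p = 9.11e-05). Bax, the pore-forming member of the BCL2 family, fell from 4407 ± 649 to 2958 ± 216 normalized counts (SD, n = 3 each), by 0.57 on the log2 scale (limma adjusted p = 0.000466). Ei24 rose from 3355 ± 276 to 6698 ± 289.5 (SD, n = 3 each), which is 1.00 on the log2 scale (limma adjusted p = 6.29e-07), and Apaf1, the scaffold of the apoptosome, rose by 0.62 (adjusted p = 1.41e-05). Eda2r, a receptor of the TNF receptor family, fell by 0.73 (limma adjusted p = 4.8e-06). The death receptor genes Fas and Tnfrsf10b did not pass (0.03 and 0.05, adjusted p = 0.816 and 0.551).

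Of the 14 targets in repair and metabolism, 6 were higher and 3 lower (42.9% and 21.4%, against 23.3% and 24.1% of all genes tested). The drug transporter genes Abcb1a and Abcb1b rose by 1.63 and 1.44 on the log2 scale (adjusted p = 0.000204 and 1.11e-06 from limma), Abcb1a from only 39.5 ± 13.5 normalized counts (SD, n = 3). Dcxr, a carbonyl reductase gene, rose by 1.00 (adjusted p = 2.12e-06). Ercc5, a nuclease gene of nucleotide excision repair, fell by 0.61 (adjusted p = 2.93e-05), and Fdxr and the adenylate kinase gene Ak1 fell by 0.56 and 0.54 (adjusted p = 0.00429 and 5.16e-05, all from limma).

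Among 16 tested regulators of p53, 6 were higher and 2 were lower (37.5% and 12.5%, against 23.3% and 24.1% of all genes tested). Cdkn2a, whose locus encodes both the MDM2 inhibitor ARF and the CDK inhibitor p16, fell from 6869 ± 760 to 3447 ± 352 normalized counts (SD, n = 3 each), by 0.99 on the log2 scale (limma adjusted p = 4.91e-06). The values do not separate its 2 products. Kat5, an acetyltransferase of p53, fell by 0.55 (adjusted p = 0.00119). Ppm1d, a phosphatase that is both a target and an inhibitor of p53, rose by 0.93 (adjusted p = 6.29e-06), Trp53bp2, which encodes the p53-binding protein ASPP2, by 0.85 (adjusted p = 3.2e-06) and the ubiquitin ligase gene Trim24 by 0.60 (adjusted p = 6.35e-05, all from limma). Of 5 damage kinases, Chek2 was lower, by 0.46 (limma adjusted p = 0.00669), and Atm, Atr, Chek1 and Prkdc did not pass. Atr passed as higher without Rnf40+/+ replicate 1 (0.33, adjusted p = 0.0124) and Atm without Rnf40-/- replicate 3 (0.30, adjusted p = 0.0453).

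**Figure D5:**
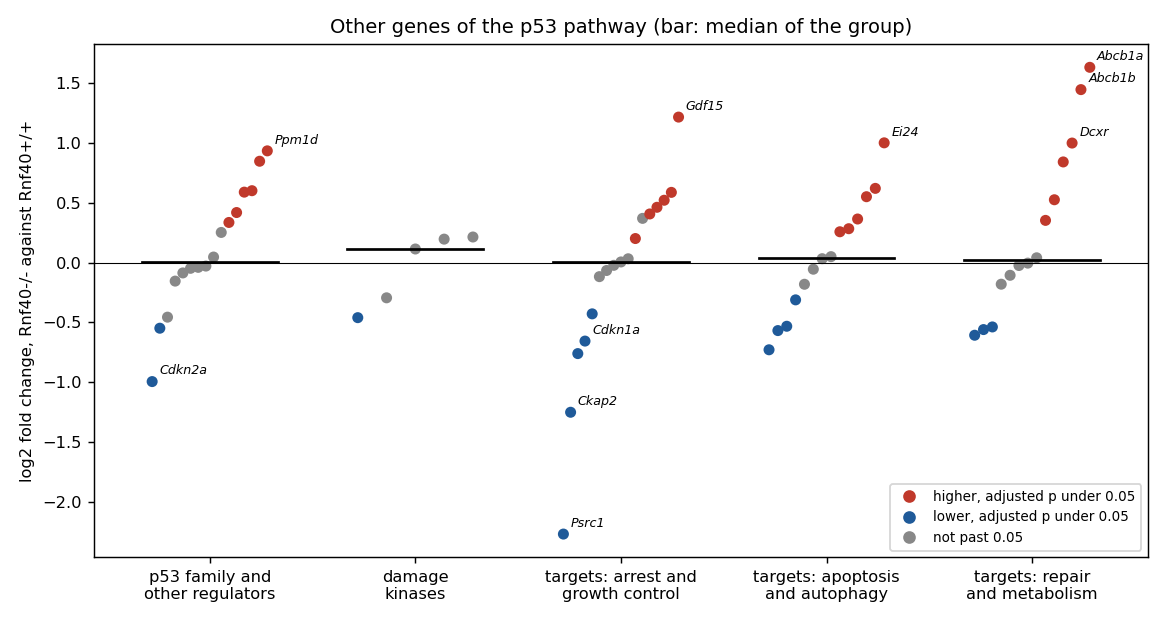
Log2 fold change (Rnf40-/- against Rnf40+/+) of the 66 tested genes of the wider p53 list, in 5 groups; each dot is a gene, the bar is the median of its group and colour gives the direction of genes with an adjusted p under 0.05 from limma. Each of the 3 target groups has dots well above and well below 0, and its median is near 0.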

How the data were processed

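The deposited values are signal per gene and library. To make them, the authors aligned reads to mm9 transcripts and scaled the counts with DESeq, so that a value is a number of reads divided by a size factor. The submitters' processing notes name Bowtie2 (version 2.1.0) and DESeq (version 1.14.0), and the counting tool is not given in the sources used here. Dividing each library by its lowest positive value gave whole numbers (within 0.01) for 100% of values, which returned the reads.

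Low genes were removed by filterByExpr (edgeR version 4.0.16) on these reads, and the rest were tested with limma (version 3.58.1, eBayes with trend) on log2(value + 1), genotype as the only term, with Benjamini-Hochberg adjustment over 16378 genes. A fold change is on this scale. The added 1 understates changes of low genes. Alternatives included edgeR, DESeq2 (version 1.42.0), other normalizations, filters and pseudocounts, a replicate block and each library left out. The scripts were tested on simulated data. BLAST (version 2.17.0) found no other gene with a coding transcript of 95% identity over 50 bases or more to a core gene, apart from 93 bases between Zmat3 and Gm11032.

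The core genes and all lists were chosen with earlier results of these data known. The text names every core gene, Cdkn1a, up to 3 largest rises and falls per group of the wider list, and every tested family relative. Rnf40 was added as a check. Fas, Tnfrsf10b, Atm, Atr, Chek1 and Prkdc, and Trp63 and Trp73, were named after their values were seen. Differences between 3 and 3 libraries cannot reach an exact permutation p below 0.1, so none is given.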

Additional observations from a re-analysis of the deposited data

How the results depend on the processing

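The calls of Trp53inp1, Btg2, Zmat3, Gadd45a and Mdm2 held under all 15 alternatives tried, and no core gene changed sign under any of them. Leaving out single libraries gave log2 fold changes of 0.66 to 0.74 for Trp53inp1, 0.67 to 0.75 for Btg2, -0.72 to -0.65 for Zmat3, -0.70 to -0.58 for Gadd45a and -0.31 to -0.23 for Mdm2, whose adjusted p was at most 0.0219 under any alternative. Upper-quartile normalization shifted the median of all genes tested from -0.0035 to 0.044 and Trp53 from -0.08 to -0.03. Perp and Phlda3 were called when Rnf40+/+ replicate 3 was left out (3 core genes higher, 4 lower). Of all 16712 genes tested in that setting, 3817 were higher and 3896 lower. Mdm4 was not called under any alternative, with an adjusted p between 0.0644 and 0.409. In the wider list the number of higher genes was 21 to 26 and that of lower genes 14 to 17. Over all genes tested, which numbered 14912 to 22545, the alternatives called 3051 to 4299 higher and 3342 to 4196 lower.

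Whether the replicate numbers pair the libraries is not known. The correlations of the deviations of same-numbered libraries were 0.0118, 0.0174 and 0.0212, and not every library correlated best with its own number. With 3 libraries per genotype, such correlations cannot decide it. A fit with a replicate block gave 3 higher and 3 lower core genes, as Phlda3 passed (adjusted p = 0.0273 from limma), 24 higher and 17 lower genes of the wider list, 10 relatives called, and a log2 fold change of -1.30 for Rnf40. Over all 16378 genes tested, the same fit called 4021 higher and 4196 lower, against 3809 and 3955 without the block. Mdm4, with 223 to 360 reads a library, was the core gene most limited by depth. The deposited values count whole genes and do not separate isoforms.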

Other observations

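The relatives of p53 itself were removed by the filter for low genes and were not tested. Their values are read against a separate floor of 3 reads, which is a normalized count of 2.40 to 3.58, depending on the library. Trp63, which encodes the epithelial p53 relative p63, was at 3.58, 2.04 and 2.40 normalized counts in Rnf40+/+ and at 15.3, 21.9 and 7.55 in Rnf40-/- MEFs. The ranges did not overlap, but the Rnf40+/+ values were at or under the floor. Trp73 was at 0 in all Rnf40+/+ libraries and at 2.04, 0 and 0.944 in Rnf40-/- MEFs, which is below the floor in each.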
